A study of Mus musculus with 2 samples.

Results

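Among the cells of B16F10 melanoma tumours grown in mice with or without Atf4, 346 of 11778 barcodes were inflammatory myeloid cells carrying mRNA of Il1b, Cxcl2 and related genes, 213 in the Atf4 WT library and 133 in the Atf4 KO library. They were chosen by measured values. A member had 200 to 5000 detected genes, at most 7.5% mitochondrial UMIs (unique molecular identifiers, each standing for 1 captured mRNA molecule), less than 0.5% of its UMIs from the melanoma genes Pmel, Dct, Mlana and Tyrp1, and at least 1 UMI of the myeloid adaptor genes Tyrobp or Fcer1g. It also had at least 3 of the 9 inflammatory genes Il1b, Il1a, Cxcl2, Cxcl3, Tnf, Ptgs2, Ccl24, Areg and Clec4e with a UMI. Cells with a UMI of Arg1, with 2 or more of 5 monocyte genes (Hp, Chil3, Ifitm6, Ly6c2, Plac8), with 3 or more of 5 resident macrophage genes (Lyve1, Fcna, Ccl8, Cd163, Cbr2) or with 3 or more of 5 genes of Vcam1-bearing macrophages (Vcam1, Fcrls, Npl, Stab1, Gatm) were left out. Since the cells were chosen on these counts, every value that sets them beside other cells is a description with no test.

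The study transplanted B16F10, a melanoma line from C57BL/6 mice, under the skin of C57BL/6 hosts carrying Rosa26::CreERT2, a tamoxifen-activated Cre recombinase driven from the broadly active Rosa26 locus, and profiled small tumours with droplet single-cell RNA sequencing. Hosts of both groups carried the Cre and received tamoxifen. Those of the WT group were Atf4 WT/WT, and those of the KO group had floxed Atf4 alleles that tamoxifen deleted, written Atf4 Δ/Δ. Each library pooled 2 tumours, and the labels give both pools as male and female mice of 11 weeks. The tumour cells carried their own intact Atf4 in both libraries. The count tables give no read positions, so UMIs from the undeleted part of an Atf4 transcript could not be separated from the rest. With 1 library for each genotype no difference between genotypes could be tested, and differences between the animals of a pool cannot be told apart from genotype. Intervals are exact 95% intervals from the counts and cover counting error only.

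The WT library went against its label in one respect. Its 6304 barcodes held 1 UMI of the Y-linked genes Ddx3y, Eif2s3y, Kdm5d and Uty, whereas 273 of the 5474 KO barcodes held 335. In the inflammatory myeloid cells Xist, the transcript of the inactive X chromosome, had 297 UMIs in WT but 26 in KO, and Y-linked UMIs numbered 0 in WT and 13 in KO, in 12 cells. Xist and Y-linked UMIs thus moved with genotype. Values in the 135 WT and 17 KO members with Xist and no Y-linked UMI, called Xist-bearing below, are given where they bear on a result, and the part of host sex was otherwise not tested. The libraries shared 10 barcode sequences, of which 2 were WT members and 0 were KO members. The deposited tables held 38417113 UMIs for WT and 38290024 for KO. Members had a median of 1874 UMIs and 910 genes in WT and of 1560 UMIs and 802 genes in KO, and the members of a library summed to 454679 and 254330 UMIs.

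IL-1β and TNF are cytokines that macrophages and monocytes release early in inflammation, and both act back on myeloid cells through receptors that activate the transcription factor NF-kB. CXCL1, CXCL2 and CXCL3 are closely related chemokines that attract neutrophils through the receptor CXCR2. PTGS2 makes prostaglandins from arachidonic acid, and in tumours myeloid cells of this kind have been described as a source of both inflammatory and growth-promoting signals. ATF4 is the transcription factor of the integrated stress response and turns on genes of amino acid uptake and synthesis.

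Pan-myeloid markers fitted the label, but their list includes Tyrobp and Fcer1g, at least 1 of which the rule required. The count of markers seen was thus partly fixed by the choice of cells. Of 12 such genes (among them Lyz2, Cd68, Itgam, Cd14 and Spi1) at least 4 were seen in 212 of 213 WT members and in 125 of 133 KO members. Macrophage markers such as C1qa, Apoe and Mrc1 summed to 13988 CPM (UMIs per 1000000 UMIs of the cells) in WT and 13286 CPM in KO, and 142 WT and 84 KO cells showed at least 4 of the 12. Monocyte markers such as Ccr2, Fn1 and Thbs1 summed to 2421 (WT) and 3472 CPM (KO). The cells thus mixed macrophage and monocyte transcripts, and no narrower cell type name was given to them.

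Markers of other cell types were unequal between the libraries, and their part in the values below was not tested beyond the core cells defined here. Of 14 neutrophil markers, 7 were seen in WT members with 46 UMIs in all and 12 in KO members with 401 UMIs, of which 3 cells held 75.6%, and 1 WT cell but 9 KO cells showed 2 or more of them. Cxcr2, Retnlg and Ngp were at 0 in WT, and Mmp9 and Camp were at 0 in KO. Fibroblast markers had 389 UMIs in WT, 339 of them in 1 cell, and 796 UMIs in KO, of which 3 cells held 95.2%. Globin mRNA had 1120 UMIs in WT, 97.8% of them in 3 cells, and 0 UMIs in KO. Markers of T and NK cells had 8 and 9 UMIs, of B cells 8 and 3, of dendritic cells 36 and 12, and of mast cells 1 and 1, in WT and KO respectively, with Ms4a1 at 0 in both libraries and Cd3e at 0 in WT. The caller Scrublet marked 1 WT and 0 KO members as doublets. Because of these cells, a narrower set of core cells was also used: members with at least 4 pan-myeloid markers, under 10 fibroblast UMIs and under 2 neutrophil markers, a definition made after the values were seen. It held 210 WT and 118 KO cells. The 3 WT and 15 KO cells it left out carried 1.70% and 23.3% of their library's member UMIs.

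The genes that chose the cells were carried very unevenly. Cxcl2 was seen in 95.8% of WT and 94.7% of KO members at 7291 and 7093 CPM, with a median of 11 UMIs in WT and 11.5 UMIs in KO where seen and up to 108 and 50 UMIs in a cell. Il1b was seen in 82.6% and 76.7% at 2235 and 2603 CPM, with a median of 3 and 4 UMIs. Both genes were present together in 168 of 213 WT cells (78.9%) and 98 of 133 KO cells (73.7%), and 1 WT and 3 KO cells had neither. Tnf was seen in 56.3% and 54.9% of cells, and Clec4e, a receptor for mycobacterial and dead-cell ligands, in 51.2% and 56.4%. Ptgs2 followed at 43.2% and 33.8%. Il1b and Cxcl2 together thus marked most but not all of the cells.

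The other 4 inflammatory genes were restricted to fewer cells. Areg, the EGF-receptor ligand amphiregulin, was seen in 17.8% of WT and 15.04% of KO cells, Il1a in 11.7% and 12.03%, and Cxcl3 in 6.10% and 13.5%. Ccl24, a chemokine for eosinophils that is also a product of alternatively activated macrophages, was seen in 29 of 213 WT cells (13.6%) at 194 CPM and in 33 of 133 KO cells (24.8%) at 586 CPM. In KO, 10 cells held 77.2% of the Ccl24 UMIs. Ccl24 was the marker of the label that was in the smallest shares of cells after Cxcl3.

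**Figure D1:**
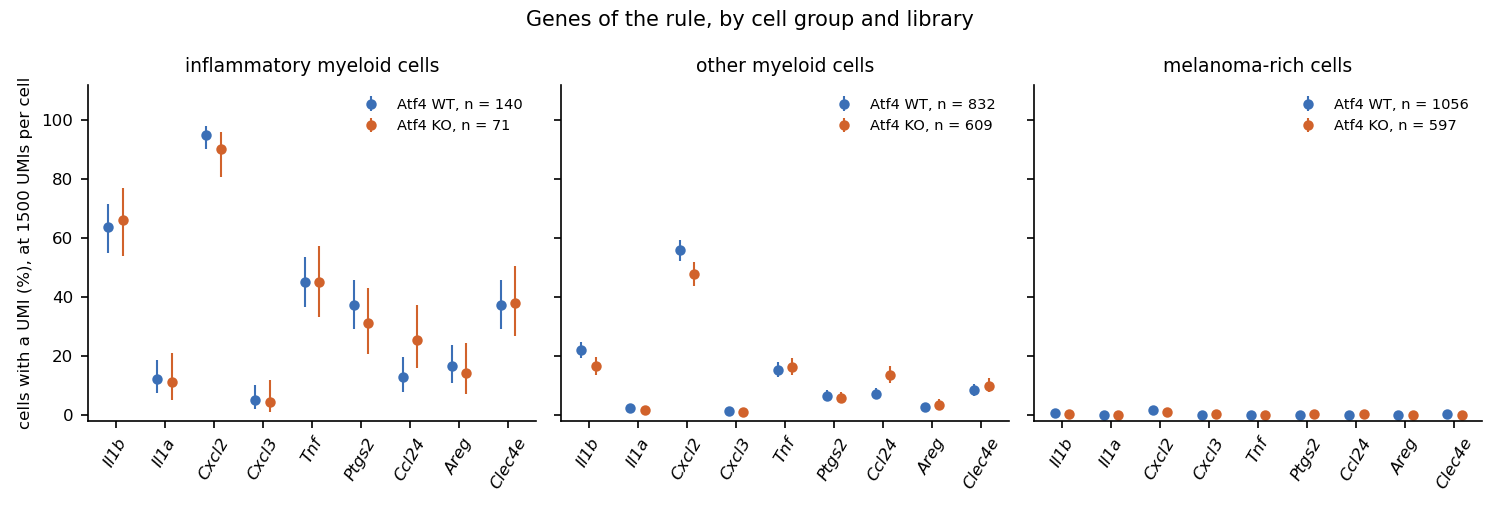
Share of cells with at least 1 UMI of each inflammatory gene used in the choice of cells (percent, vertical axis) after every cell was thinned to 1500 UMIs, for inflammatory myeloid cells, other myeloid cells and melanoma-rich cells of the WT and KO libraries; bars are exact 95% intervals. Il1b stood at 63.6% (WT) and 66.2% (KO) of the inflammatory myeloid cells, and at 0.568% and 0.168% of the melanoma-rich cells.

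The shares were also compared at equal depth. Thinned to 1500 UMIs a cell, which left out 73 WT and 62 KO members with fewer, Il1b was seen in 63.6% of 140 WT members and 66.2% of 71 KO members. In the other myeloid cells of the same depth it was seen in 21.9% and 16.4%, and in melanoma-rich cells, which should not express it, in 0.568% and 0.168%, against unthinned shares of 3.25% and 1.73%. Cxcl2 was seen in 95% and 90.1% of thinned members, in 55.8% and 47.6% of other myeloid cells and in 1.52% and 1.01% of melanoma-rich cells. Melanoma-rich cells had median depths of 11530 and 10234 UMIs before thinning. Dct, a melanoma gene, was seen in 40.7% and 36.6% of thinned members and 37.6% and 35.5% of other myeloid cells.

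The threshold of 3 inflammatory genes lay on a slope. Exactly 3 of the 9 genes were seen in 113 WT and 59 KO members, 4 in 55 and 46, 5 in 31 and 23, 6 in 8 and 3, 7 in 4 and 2, and 8 in 2 and 0. Just outside stood 191 WT and 75 KO cells that met every other condition but showed 2 genes. Il1b was at 747 CPM (WT) and 648 CPM (KO) in the cells with 2 genes, at 1333 and 1363 CPM in those with 3, and at 3243 and 3742 CPM in those with 4 or more. Cxcl2 went from 2930 and 3219 CPM through 4586 and 5141 CPM to 10316 and 8887 CPM. Nfkbia, which was not in the rule, was at 954 and 1282 CPM with 2 genes, 1108 and 1593 CPM with 3, and 2227 and 2082 CPM with 4 or more.

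The other conditions also removed inflammatory cells. Of the myeloid cells with at least 3 inflammatory genes, 453 in WT and 348 in KO, Arg1 was seen in 56 and 85, 2 or more monocyte genes in 135 and 111, 3 or more resident genes in 30 and 43, and 3 or more Vcam1-set genes in 42 and 25. The 213 and 133 members were thus fewer than the inflammatory gene count alone would give.

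The genes lie on several chromosomes of GRCm38.p6, with the CXC chemokines clustered on chromosome 5 (Cxcl3 at chr5:90786101-90788093, Cxcl1 at chr5:90891245-90893121, Cxcl2 at chr5:90903899-90905938) near Areg (chr5:91139599-91148432). Il1a (chr2:129299609-129310186) and Il1b (chr2:129364569-129371164) are neighbours on chromosome 2. Tnf is at chr17:35199367-35202007 and Ptgs2 at chr1:150100031-150108234. The 250 bases before the start site are given for Cxcl2 and Cxcl3, which helped to choose the cells, and for Cxcl1 and Nfkbia, which did not and were among the genes far higher in them (RefSeq, GRCm38.p6, 5′ to 3′ on the gene's own strand). Capitals mark matches to GGGNNTTTCC on either strand (GGAAANNCCC on the other), a form of the site that NF-kB dimers bind. The windows are chr5:90903649-90903898 for Cxcl2, chr5:90890995-90891244 for Cxcl1 and chr5:90785851-90786100 for Cxcl3, all on the plus strand, and chr12:55492648-55492897 on the minus strand for Nfkbia.
Cxcl2: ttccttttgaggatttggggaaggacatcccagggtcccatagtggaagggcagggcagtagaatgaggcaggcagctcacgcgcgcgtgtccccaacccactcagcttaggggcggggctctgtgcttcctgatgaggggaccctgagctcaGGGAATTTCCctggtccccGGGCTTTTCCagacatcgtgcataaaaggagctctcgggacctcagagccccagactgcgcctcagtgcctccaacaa
Cxcl1: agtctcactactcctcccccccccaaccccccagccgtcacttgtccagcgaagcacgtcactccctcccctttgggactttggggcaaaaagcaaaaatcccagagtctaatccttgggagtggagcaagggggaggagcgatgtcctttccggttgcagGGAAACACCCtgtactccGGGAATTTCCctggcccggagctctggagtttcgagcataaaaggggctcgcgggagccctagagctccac
Cxcl3: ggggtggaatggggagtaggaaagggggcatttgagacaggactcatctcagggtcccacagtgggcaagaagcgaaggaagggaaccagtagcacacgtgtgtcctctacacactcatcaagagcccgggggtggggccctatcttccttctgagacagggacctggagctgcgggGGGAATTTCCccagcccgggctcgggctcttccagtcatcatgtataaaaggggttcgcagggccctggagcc
Nfkbia: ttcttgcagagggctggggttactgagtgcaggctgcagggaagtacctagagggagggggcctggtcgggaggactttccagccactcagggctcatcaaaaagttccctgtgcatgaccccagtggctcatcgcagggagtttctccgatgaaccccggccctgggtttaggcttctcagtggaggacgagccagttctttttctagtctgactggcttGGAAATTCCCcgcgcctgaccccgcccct
Cxcl2 and Cxcl1 each held 2 matches, beginning 97 and 78 bases before the start in Cxcl2 and 89 and 71 bases before it in Cxcl1. Cxcl3 held 1 match 73 bases before the start and Nfkbia 1 match 29 bases before it. Of 32851 promoters of 27025 genes in the same table, 464 (1.41%) held a match. Among the 9 inflammatory genes 8 had an entry and 2 of these held a match, Cxcl2 and Cxcl3. Of 14 NF-kB pathway genes with an entry 3 did, Nfkbia, Rel and Tnfaip3. The motif was picked after these promoters had been viewed, and a match says only that the letters are there.

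Outside the genes that chose the cells, the NF-kB pathway and its feedback regulators stood higher in the inflammatory myeloid cells than in the other 1431 WT and 1028 KO myeloid cells. Of 2004 genes with at least 50 UMIs in members, 28 (1.40%) were at least 2-fold higher than in other myeloid cells in both libraries, and 1 (0.0499%), the endothelin receptor gene Ednrb, was at least 2-fold lower in both. All 16 measured genes of the NF-kB list were higher in both libraries, with a median log2 ratio of 0.996 in WT and 1.40 in KO against 0.02 and 0.02 over all genes measured. Of the 16, 6 were at least 2-fold higher in both. Tnfaip3, whose product A20 shuts NF-kB signalling off, was at 284 against 97.2 CPM in WT and 220 against 77.9 CPM in KO. Nfkbia, the inhibitor IkBα and itself a target of NF-kB, was at 1636 against 720 CPM in WT and 1848 against 698 CPM in KO. Tnip3, a partner of A20, was at 200 against 58.7 CPM and 106 against 18.3 CPM. Ccrl2, a receptor that binds the attractant chemerin, was at 304 against 107 CPM and 244 against 76.7 CPM. Bcl2a1a and Bcl2a1b, which protect cells from apoptosis, completed the 6, but with Bcl2a1d they are near-identical copies among which reads can be split, so their separate values are uncertain. The transcription factor genes Nfkb1 (log2 0.65 and 1.16) and Rel (0.66 and 1.40) were higher by less. For Icam1 and Sod2 the KO intervals included 0.

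**Figure D2:**
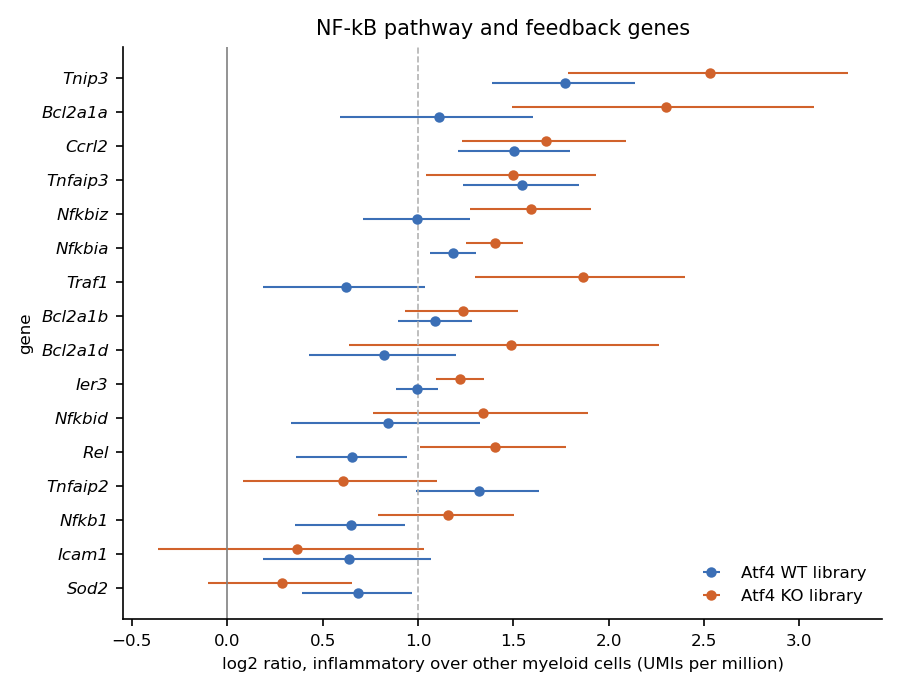
Log2 ratio of CPM in inflammatory myeloid cells over other myeloid cells (horizontal axis) for the 16 measured NF-kB pathway and feedback genes in WT and KO, with exact 95% intervals. Every point lies above 0, and in KO the intervals of Icam1 and Sod2 reach it.

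Other inflammatory cells carried these genes too. Some cells with at least 3 inflammatory genes were left out by a single condition and met all others. Against those left out for Arg1 alone (47 WT and 51 KO cells), the NF-kB list had a median log2 ratio of 0.26 in WT and 0.14 in KO, and against those left out for monocyte genes alone (129 and 84 cells) of 0.03 and 0.12. Against those left out for resident or Vcam1-set macrophage genes alone (54 and 42 cells) it was 0.87 and 0.64. Against the cells that met every other condition but had under 3 inflammatory genes (683 and 334 cells) it was 1.11 and 1.77. The ratios were smallest against the Arg1-bearing and monocyte-gene cells and largest against the cells with few inflammatory genes.

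Secreted factors outside the rule were next. Of 7 measured cytokines and growth factors, 2 were at least 2-fold higher in both libraries. Tnfsf9, the ligand of the T cell costimulator 4-1BB, was at 255 against 57.1 CPM in WT and 161 against 31.4 CPM in KO. Il10, an anti-inflammatory cytokine, was at 180 against 41.1 CPM in WT and 126 against 27.7 CPM in KO. Il1rn, which encodes the antagonist of the IL-1 receptor, was higher by 0.95 and 0.82 on the log2 scale, and Osm by 0.91 and 0.89. The inflammasome sensor gene Nlrp3, which acts upstream of IL-1β release, was at 255 against 75.4 CPM in WT and 275 against 57.9 CPM in KO, while the adaptor gene Pycard was near the level in other cells (log2 0.05 and 0.16, both intervals including 0). Both activating and restraining factors were thus higher in members than in the other myeloid cells as a group. Over the inflammatory cells left out for Arg1 alone the cytokine list had medians of 0.06 (WT) and -0.12 (KO). Over those left out for monocyte genes alone the medians were 0.28 and 0.50. Over the Arg1 cells Tnfsf9 stood at log2 0.92 and 0.48, Il10 at 1.74 and 0.71 and Nlrp3 at 0.43 and 0.18. These ratios are given without intervals, and Il10 was seen in only 3 WT and 2 KO cells of that group.

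Of 11 measured chemokines, 4 were at least 2-fold higher in both libraries. Cxcl1 was at 1337 against 346 CPM in WT and 704 against 219 CPM in KO. Ccl3 (log2 1.20 and 1.40) and Ccl4 (1.16 and 1.22), which attract monocytes and T cells, were higher by similar ratios. Ccl17 was at 33.0 against 5.46 CPM and 189 against 21.2 CPM, but its UMIs lay in 5 WT and 4 KO cells. Ccl12 alone was lower in both (log2 -0.48 and -0.74). In the inflammatory cells left out for Arg1 alone Cxcl1 stood at 1261 (WT) and 627 CPM (KO), near its levels in members. Over those cells the chemokine list had medians of 0.23 and 0.53, and over the cells left out for monocyte genes alone of 0.55 and 0.22. S100a8 and S100a9, neutrophil genes, were also among the 15 highest genes, with their WT UMIs in 1 cell and most KO UMIs in the few neutrophil-marker cells described above.

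Surface and signalling genes completed the description. Cd14, the lipopolysaccharide co-receptor, was at 1339 against 599 CPM in WT and 1337 against 503 CPM in KO, the 1 gene of 6 pattern recognition receptors past 2-fold in both. It was seen in 85.4% and 81.2% of members, in 89.4% and 84.3% of the cells left out for Arg1 alone and in 80.6% and 85.7% of those left out for monocyte genes alone. Against these other inflammatory cells the receptor list was lower in members, with median log2 ratios of -0.14 (WT) and -0.59 (KO) over the Arg1 cells and of -0.36 and -0.32 over the monocyte-gene cells. Malt1, a protease of NF-kB signalling, and the phosphatase gene Dusp2 had log2 ratios of 1.33 and 1.77, and of 1.26 and 1.61. Of 19 immediate early genes, Dusp2 was the 1 past 2-fold in both, and Jun was lower in both (-0.82 and -0.39). The list's median was 0.18 in WT and 0.56 in KO. Of 9 heat shock genes Hspb1 alone was past 2-fold, with its UMIs in 4 WT and 3 KO cells. Among the lowest genes were Gas6, Folr2, Hmox1 and Pmp22. Folr2, a marker of resident macrophages, was at 207 against 364 CPM in WT and 86.5 against 522 CPM in KO, and Hmox1, the haem-degrading enzyme, at 581 against 994 CPM and 440 against 1265 CPM. The rule's limit on resident macrophage genes bears on Folr2 and Gas6.

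MHC class II genes differed by library. All 6 measured genes were higher in members than in other myeloid cells, with a median log2 ratio of 0.37 in WT and 1.37 in KO. Cd74, the invariant chain, was at 4251 against 3062 CPM in WT and at 4518 against 1627 CPM in KO, so the levels in members were close and those in the other cells were not. H2-Ab1 was at 1401 against 1219 CPM and 1557 against 590 CPM. The direction depended on the cells compared. Over the cells with under 3 inflammatory genes that met every other condition the list's median was -0.25 in WT and 0.77 in KO, and over the cells left out for Arg1 alone 0.21 and -0.24. It was 0.43 and 0.49 over the monocyte-gene cells and 3.22 and 3.68 over the macrophage-gene cells. Whether the difference between libraries exceeds that between animals was not tested.

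The inflammatory myeloid cells varied among themselves along lines the rule partly built in, since a cell without one gene needed others to reach 3. In each library the members with a UMI of a gene were set beside those without it over 42 genes. The 73 KO cells with Tnf and the 120 WT cells with Tnf had more of several macrophage and chemokine genes. Ccl3 was at 496 against 206 CPM in WT and 659 against 256 CPM in KO, Ccl4 at 1069 against 418 CPM and 1296 against 680 CPM, and C1qa at 2271 against 1161 CPM and 2005 against 1105 CPM. Il10, Tnfsf9, Nfkbia, Pf4 and Apoe were also higher in both libraries in cells with Tnf. Lower in both were Ptgs2, Thbs1, Fn1 and Ccl24. Retnla was at 226 against 1807 CPM in WT and 77.9 against 1060 CPM in KO, where 1 cell without Tnf held 101 of its 131 UMIs. Without that cell the KO log2 ratio was -1.14 (-2.36 to 0.00306), and 3 of the 6 KO cells with Retnla had Tnf.

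Cells with Ptgs2 or Areg differed from the rest in other genes. The 92 WT and 45 KO cells with Ptgs2 had more Il1b (3120 against 1599 CPM in WT and 3612 against 2133 CPM in KO), Cd74 (5235 against 3545 and 6184 against 3741 CPM), H2-Ab1, Fn1 and Cxcl1, and less Apoe, C1qa and Pf4. The 38 WT and 20 KO cells with Areg had more Cd74 (8206 against 3349 and 5780 against 4190 CPM) and H2-Ab1 and less Apoe (1717 against 5931 and 2346 against 5185 CPM), Pf4, Spp1 and Fabp5. Cells with Tnf went with C1q and Pf4, and cells with Ptgs2 or Areg with MHC class II genes. All these splits used detection at full depth, and the part of depth in them was not tested.

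**Figure D3:**
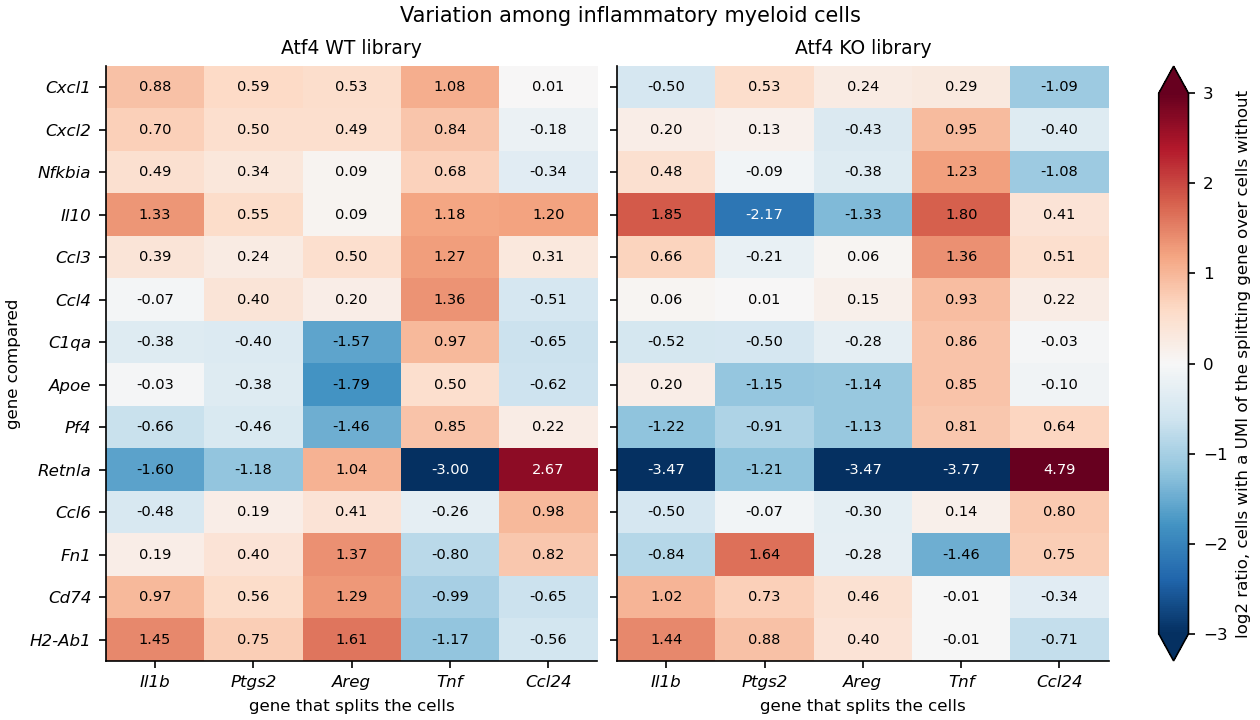
Log2 ratio of CPM in members with a UMI of the gene named on the axis of splits over members without it, for 14 genes in WT and KO; the colour scale is log2. Cd74 and H2-Ab1 are higher in cells with Il1b, Ptgs2 or Areg in both libraries, and Retnla is higher in cells with Ccl24; its KO values rest mostly on 1 cell.

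Cells with Il1b itself (176 WT and 102 KO members) had more Cd14 (1565 against 612 CPM in WT and 1516 against 823 CPM in KO), Cd74, H2-Ab1, Il10, Junb and Thbs1 than the 37 and 31 members without it, and less Pf4 (1519 against 2394 and 1685 against 3915 CPM). Retnla was lower with Il1b in WT (585 against 1772 CPM), but in KO its ratio turned from -3.47 to 1.59 (-0.11 to 3.95) without the 1 cell of most Retnla UMIs. In WT the cells without Il1b were deeper, with a median of 2809 against 1738 UMIs, and in KO the medians were 1581 and 1539 UMIs. Cells with Ccl24 (29 and 33) had more Fn1, Ccl6, Fabp5 and Lyz2 and less Nfkbia, Cxcl2 and Cd74. Retnla, a gene of IL-4-activated macrophages, stood out among them at 3105 against 486 CPM in WT and 1665 against 60.4 CPM in KO. It was seen in 22 WT cells, 8 of them with Ccl24 (36.4%, 17.2 to 59.3) against 11.0% of the 191 without Retnla, and in 6 KO cells. Without the KO cell of most Retnla UMIs the KO levels were 274 against 60.4 CPM.

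Between the genotypes, the share of inflammatory myeloid cells was 5.52% (4.82 to 6.28) of 3861 kept cells in WT and 3.74% (3.14 to 4.42) of 3557 in KO, a log2 ratio of -0.56 (-0.88 to -0.24). Among myeloid cells it was 12.96% (11.4 to 14.7) of 1644 and 11.5% (9.68 to 13.4) of 1161, a log2 ratio of -0.18 (-0.50 to 0.14). The second interval included 0. These shares come from dissociated tumours, and how far they follow the tissue was not tested.

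Atf4 was lower in KO, as its label gives. The 213 WT members had 82 UMIs, 180 CPM (143 to 224), in 68 cells. The 133 KO members had 9 UMIs, 35.4 CPM (16.2 to 67.2), in 5 cells, 1 of which held 4. The log2 ratio was -2.35 (-3.53 to -1.35), and in the core cells, with 80 and 4 UMIs, -3.13 (-5.04 to -1.71). In other myeloid cells it was -1.19 (-1.42 to -0.96) and in melanoma-rich cells, which keep their own Atf4, -0.32 (-0.42 to -0.22). The cells that met every other condition but had under 3 inflammatory genes stood at 202 (WT) and 155 CPM (KO). Their ratio of CPM was -0.38 (-0.69 to -0.08), near that of the melanoma-rich cells, but their share of cells with Atf4 was not. Atf4 had 293 UMIs in 216 of these 683 WT cells and 132 UMIs in 46 of these 334 KO cells. After thinning it was seen in 25.8% (WT) and 9.24% (KO) of them. The thinned shares were 25.4% and 8.05% in other myeloid cells, of which they are part, and 25.2% and 21.9% in melanoma-rich cells. Inflammatory cells left out for Arg1, monocyte or macrophage genes alone gave log2 ratios of -1.43 (-3.02 to -0.09), -3.12 (-6.80 to -1.77) and -1.82 (-3.55 to -0.42). Xist-bearing cells alone gave -1.17 (-3.49 to 0.46). Atf4 lies at chr15:80255184-80257545.

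**Figure D4:**
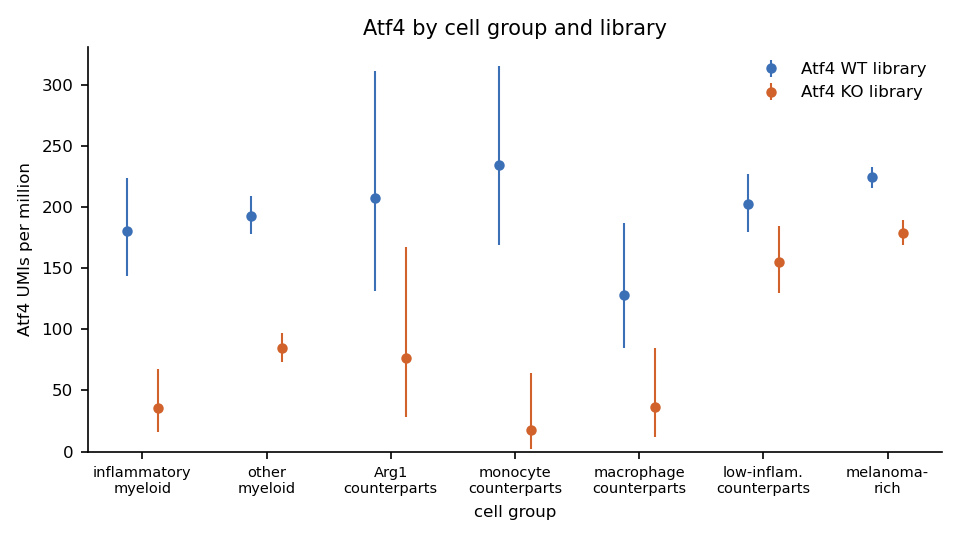
Atf4 level (CPM, vertical axis) in WT and KO for inflammatory myeloid cells and 6 other groups of cells, with exact 95% Poisson intervals. The inflammatory myeloid cells stood at 180 (WT) and 35.4 CPM (KO), and melanoma-rich cells at 224 and 179 CPM.

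Genes known as ATF4 targets lay on both sides of 0. Of the 7 measured, Gars (52.8 (WT) and 114 CPM (KO), log2 1.11, 0.28 to 1.95) and Eif4ebp1 (150 and 271 CPM, 0.86, 0.35 to 1.36) were higher in KO. Slc3a2, a subunit of amino acid transporters, was lower (435.5 and 318 CPM, -0.45, -0.84 to -0.07), as was Cebpb (1069 and 865 CPM, -0.31, -0.54 to -0.07). The intervals of Slc7a11, Nupr1 and Nars included 0. The list's median was 0.51, and -0.12 over the 5 of its genes measured in the core cells. Summed over the whole list, the log2 ratio was 0.002 (-0.14 to 0.15) in members, so the sum showed no difference beyond counting error. The list held 32 genes, of which 30 had a UMI in members but only 7 had enough UMIs to be measured. The median thus rests on few of the listed targets.

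Across all genes, 2025 had at least 50 UMIs over the members of both libraries, and the median log2 ratio of KO over WT was -0.03. Of these 46 (2.27%) were at least 2-fold higher in KO with an interval off 0 and 59 (2.91%) at least 2-fold lower. In the core cells 21 of 1838 (1.14%) were higher and 58 (3.16%) lower. Both sets shared 13 higher and 29 lower genes.

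Most of the genes highest in KO lay in very few cells. Ctla2a had 0 UMIs in WT and 57 in KO, 53 of them in 1 cell, and Acta2, smooth muscle actin, had 4 and 54, 53 of them in 1 cell. Igfbp7, Saa3 and Rarres2 had 58 of 66, 68 of 83 and 37 of 51 KO UMIs in 1 cell. S100a8 and S100a9 had 160 KO UMIs each, in 8 and 6 cells, and Dcn had 58 in 3 cells. Most of these are genes of fibroblasts, vessel walls or neutrophils, and they moved with the KO cells that the core definition left out: Igfbp7 was at 0.78 and Sparc at 0.41 in core cells on the log2 scale, against 2.56 and 2.36 in all members.

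A smaller group was higher in KO in the core cells as well. Ccl12, a monocyte chemokine, was at 242 CPM (110 UMIs) in WT and 566 CPM (144 UMIs) in KO, a log2 ratio of 1.23 (0.86 to 1.60), and 1.54 in core cells. Rsad2, an antiviral interferon-stimulated gene, was at 61.6 and 161 CPM (1.39, 0.66 to 2.14) and Ero1l, a hypoxia-induced oxidase of the endoplasmic reticulum, at 99.0 and 236 CPM (1.25, 0.67 to 1.84), with 1.60 and 1.16 in core cells. In other myeloid cells Ccl12, Rsad2 and Ero1l had ratios of 1.49, 1.30 and 1.08. Rgcc (1.88), Sec61a1 (1.76), Vcan (1.63) and Map4k4 (1.31) were higher in members, while in other myeloid cells they were at 0.14, 0.27, 0.54 and 0.08. Of the genes of the rule, Chil3 (1.82), Ccl24 (1.60) and Cxcl3 (1.24) were higher in KO. Cxcl3 had only 28 UMIs in WT and 37 in KO, and after thinning it was seen in 5% and 4.23% of members. Ccl24 was then seen in 12.9% (WT) and 25.4% (KO) of members and in 7.21% and 13.5% of other myeloid cells. Il1b (0.22, 0.08 to 0.36), Cxcl2 (-0.04, -0.12 to 0.04) and Tnf (0.39, 0.09 to 0.68) differed by less. They stood at 0.45, 0.15 and 0.66 in the core cells.

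The genes lowest in KO apart from globins, Xist and Atf4 were spread over many WT cells. Acp5, an acid phosphatase of macrophages and osteoclasts, had 46 UMIs (101 CPM) in 32 WT cells and 5 UMIs (19.7 CPM) in 5 KO cells, a log2 ratio of -2.36 (-4.05 to -1.04) in members and 0.04 (-0.29 to 0.37) in other myeloid cells. Igf1, a growth factor of tissue macrophages, had 80 UMIs (176 CPM) and 9 UMIs (35.4 CPM), -2.31 (-3.49 to -1.32), against -0.43 in other myeloid cells. Ly86, which encodes the partner of a TLR-like receptor, had 115 and 19 UMIs (-1.76, -2.54 to -1.05), H2-T23 had 55 and 8 (-1.94, -3.22 to -0.86) and Mgl2, a lectin of alternatively activated cells, 55 and 9 (-1.77, -2.98 to -0.74). These genes were lower in KO in other myeloid cells too: Ly86 at -0.81 (-1.01 to -0.62), H2-T23 at -0.92 (-1.20 to -0.64) and Mgl2 at -1.77 (-2.30 to -1.26). Among Xist-bearing cells alone Igf1 was at -1.47 (-5.13 to -0.14) and Ly86 at -1.498 (-3.40 to -0.09), the intervals of H2-T23 and Mgl2 included 0, and Acp5 was not seen in KO. In the core cells these 5 genes stood between -2.24 and -1.39. When the cells were chosen after thinning, Igf1 was at -0.89 and Ly86 at -0.74, no longer past 2-fold, Acp5 at -1.15, Mgl2 at -1.49 and H2-T23 at -2.29.

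Alternative activation genes were lower in KO members as a list. All 8 measured genes had ratios below 0, with a median of -0.82 against -0.03 over all genes, and 2 were past 2-fold with an interval off 0, Mgl2 and Folr2. Folr2 was at 207 (WT) and 86.5 CPM (KO) (-1.26, -1.998 to -0.58), Maf at 301 and 161 CPM (-0.90, -1.44 to -0.39), Selenop at 629 and 362 CPM (-0.80, -1.15 to -0.45) and Retnla at 867 and 515 CPM (-0.75, -1.05 to -0.46). Without the KO cell that held 101 of its 131 UMIs Retnla was at 119 CPM in KO and -2.86 (-3.45 to -2.33), and the list's median at -0.88. In other myeloid cells the list's median was 0.28. The rule limited resident and Vcam1-set macrophage genes in members but not in other myeloid cells. Summed over the 5 resident genes, members had 631 (WT) and 413 CPM (KO) and other myeloid cells 1972 and 4847 CPM. The median was -0.61 in the core cells and -0.27 when the choice of cells was made after thinning each cell to 1500 UMIs.

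Lysosome and lipid genes were lower in KO in 16 of 18 measured genes, against 1074 of 2025 over all genes. Their median was -0.50 (-0.34 in the core cells, -0.66 after thinning). Lpl, lipoprotein lipase, was at 1078 (WT) and 507 CPM (KO) (-1.09, -1.38 to -0.80), the fatty acid receptor gene Cd36 at 310 and 142 CPM (-1.13, -1.70 to -0.59), and the lysosomal lipase gene Lipa at 233 and 114 CPM (-1.03, -1.68 to -0.43). The cathepsin genes Ctsd (-0.96), Ctsb (-0.71) and Ctss (-0.70) were lower as well, while Spp1 (0.06) and Plin2 (0.01) had intervals that included 0. In the core cells 13 of 18 were lower, against 933 of 1838 over all genes.

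Hypoxia and glycolysis genes were higher in KO in 17 of 19, against 951 of 2025 over all genes, with a median of 0.45. Gapdh was at 1779 (WT) and 2988 CPM (KO) (0.75, 0.60 to 0.89), Pgk1 at 596 and 1042 CPM (0.81, 0.56 to 1.06) and Mif at 721 and 1144 CPM (0.67, 0.43 to 0.90). In the core cells the median was 0.41, and in other myeloid cells it was 0.53. After thinning before the choice of cells it was 0.08.

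Chemokines had a median of 0.34 (0.54 in core cells), with Cxcl10 (0.55, 0.13 to 0.98), Ccl7 (0.43, 0.25 to 0.61) and Ccl4 (0.34, 0.11 to 0.58) higher in KO and Cxcl1 lower (-0.93, -1.17 to -0.68; -1.03 in core cells). Matrix genes had a median of 0.32. Thbs1 was at 578 (WT) and 1144 CPM (KO) (0.98, 0.74 to 1.23) and Fn1 at 831 and 1360 CPM (0.71, 0.50 to 0.92), while Timp1 was at 1.87 in all members and at 0.50 in the core cells. NF-kB genes had a median of -0.12 in all members and 0.02 in the core cells, with 8 of 16 higher and 8 lower in the latter. MHC class II genes were at -0.02 in members (0.24 in the core cells and -0.80 in Xist-bearing cells), against -1.02 in other myeloid cells. Cell cycle genes were lower in 7 of 7, against 1074 of 2025 over all genes. Their median was -0.78 (Stmn1 -1.06, Cdk1 -1.04) and -1.25 over 5 in the core cells, but 0.01 when cells were chosen after thinning. Interferon-stimulated genes were higher in KO in 5 of 7, against 951 of 2025 over all genes. Their median was 0.25 (0.32 in the core cells and -0.49 in Xist-bearing cells). Past 2-fold were Rsad2, higher, and Irf7, lower (-1.23, -2.39 to -0.21).

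**Figure D5:**
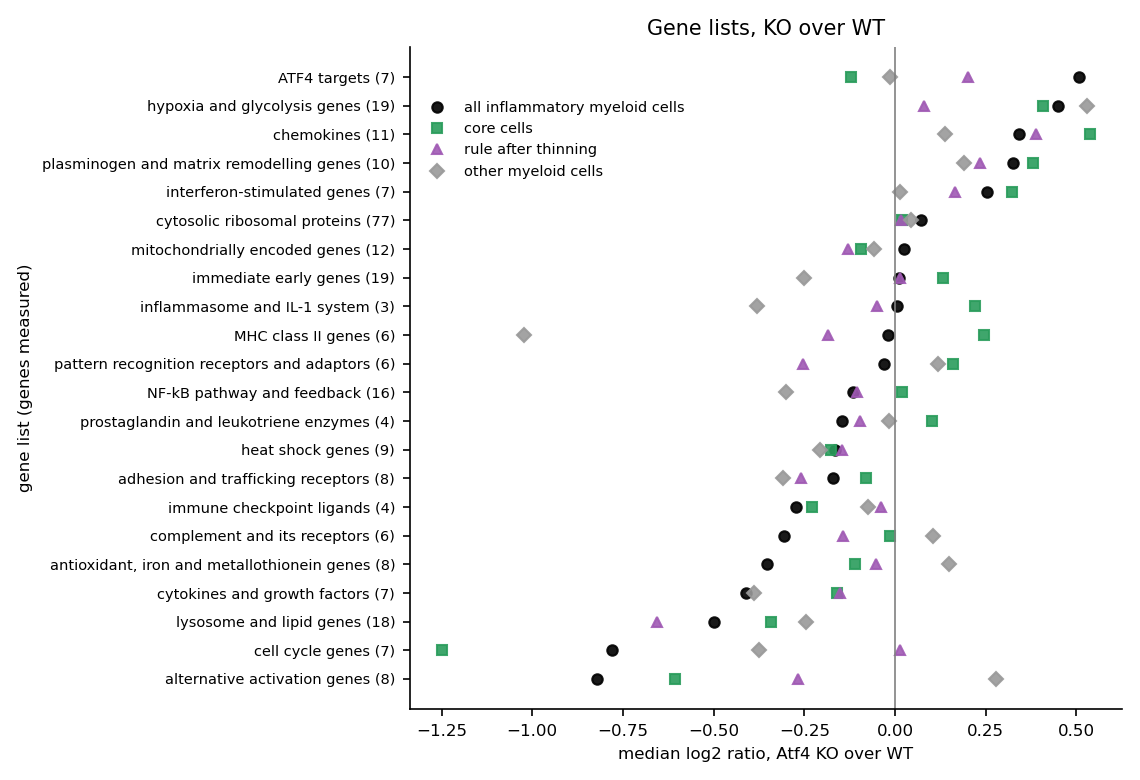
Median log2 ratio of KO over WT (horizontal axis) for each gene list, with the number of genes measured in brackets, in all inflammatory myeloid cells, in the core cells, in the cells chosen after thinning to 1500 UMIs and in other myeloid cells. Alternative activation genes stood at -0.82 in the inflammatory myeloid cells and 0.28 in other myeloid cells, and hypoxia genes at 0.45 and 0.53.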

How the data were processed

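Droplet 3′ single-cell RNA sequencing was done on 1 library for each genotype. The deposited matrices hold raw UMI counts for 31053 genes. The submitters' processing notes name Cell Ranger 3.1.0, Seurat 3.2.1 and the build GRCm38. The kit version differs between labels and methods, so depth is taken from the counts alone. The labels' 2 groups were kept, and 0 value columns were left unmapped.

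The members, gene lists and comparisons were chosen with earlier results of these data known. Counts were summed over the cells of a group and library and divided by their total UMIs (CPM). Genes with at least 50 UMIs entered the lists and counts. For a gene's ratio a count under 3 was set to 3 where the other count was above 3. Intervals are exact: Poisson for levels, Clopper-Pearson for shares and conditional binomial for ratios (SciPy 1.17.1, NumPy 2.4.6, Python 3.11.15). A gene was counted when it differed 2-fold, with an interval off 0 for KO over WT, or in both libraries for members over other myeloid cells. No p-value was computed, since each genotype had 1 library and cells are not replicates. The scripts were tested on simulated data.

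Genes named by value were the 12 with the largest ratio in each direction of KO over WT, and the 15 highest and 10 lowest of members over other myeloid cells by the smaller of both libraries' ratios. Others named came from the lists, from the split of cells by rule genes, or from the genes past 2-fold in both all members and core cells, which were picked after their values were seen. Melanoma-rich cells had at least 1% melanoma UMIs. Thinning drew 1500 UMIs a cell without replacement. S6 kinase genes were left out of the ribosomal list. Doublets were called with Scrublet in Scanpy 1.11.5 and removed only as an alternative. Other alternatives changed the filters, the number of inflammatory genes, the scaling (TMM, edgeR 4.0.16 under R 4.3.3), the UMI minimum and the cells. Figures were drawn with matplotlib 3.10.9. Promoters came from RefSeq (GRCm38.p6) and were matched by gene symbol.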

Additional observations from a re-analysis of the deposited data

Results flagged for a closer look

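Summed over the genes of a list, KO over WT lay on opposite sides of 0 in the inflammatory myeloid cells and in the other myeloid cells for 4 lists. Alternative activation genes stood at a log2 ratio of -0.69 in the former (-1.02 without the KO cell of most Retnla UMIs) and 0.49 in the latter. Macrophage genes moved with this contrast over all members. The 5 resident macrophage genes, which the rule limited in the inflammatory myeloid cells only, stood at -0.61 and 1.30, and macrophage markers at -0.0743 and 0.31. In the core cells the resident genes stood at -0.35, macrophage markers at 0.23 and alternative activation genes at -0.42. The part of macrophage genes in the contrast was not tested. Complement genes and receptors stood at -0.21 and 0.22. In the core cells complement stood at 0.10 (0.00852 to 0.20), on the same side of 0 as in other myeloid cells. Antioxidant, iron and metallothionein genes stood at -0.19 and 0.0874. NF-kB pathway genes went the other way, at 0.0860 and -0.12, although the median gene of that list was at -0.12 in the inflammatory myeloid cells, so sum and median differ in sign there. With 1 library for each genotype none of these 4 differences was tested.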

How the results depend on the processing

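No paired analysis was possible because there was 1 library of each genotype. With myeloid cells as denominator the log2 ratio of the share of inflammatory myeloid cells was -0.18. The number of genes at least 2-fold higher in KO was 30 with melanoma genes under 0.2% of UMIs, 21 with at least 4 inflammatory genes, 16 when cells were chosen after thinning, 21 in the core cells, and 154, 7 and 363 with at least 20, at least 200 and any number of UMIs. Genes lower in KO numbered 104 with at least 2 inflammatory genes, 36 with at least 4, 29 after thinning, and 132, 6 and 163 under the same 3 UMI limits. The hypoxia median was 0.38 at the 0.2% limit, 0.0788 after thinning, 0.61 in Xist-bearing cells, 0.35 without the deepest cell of each library and 0.37 with TMM factors. The alternative activation median was -0.62 with at least 2 inflammatory genes, -0.27 after thinning and -0.61 in the core cells. The cell cycle median was -1.25 at the 0.2% limit and in the core cells, -1.09 without the deepest cells and 0.0137 after thinning, and had no value at 200 UMIs. Atf4 was at -1.17 in Xist-bearing cells. Against other myeloid cells, 18 genes were higher in both libraries with at least 2 inflammatory genes, 15 in Xist-bearing cells (9 of 11 NF-kB genes) and 50 against the cells with few inflammatory genes. Of 22 list medians, 15 changed sign under at least 1 alternative and 7 under none. Where the list's sum had an interval off 0 on the side of the median, the reversed medians, beside that of the cell cycle genes, were -0.00744 for matrix genes with at least 4 inflammatory genes, -0.49 (Xist-bearing) and -0.0113 (200 UMIs) for interferon genes, -0.00651 for ribosomal proteins with TMM factors and 0.00665 for cytokines at 20 and 200 UMIs. Among the others, ATF4 targets reached -0.38, NF-kB genes 0.21, checkpoint ligands 0.26 and adhesion receptors 0.0711. Retnla was at -2.86 without 1 KO cell. Igfbp7 was at -1.81 with at least 4 inflammatory genes. The causes were not tested. Of 374 list medians 257 moved by no more than the counting error of the list's sum. Of 326 values of named genes 272 stayed within the counting interval of the main value.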

Other observations

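Several lists not described above stood near 0 between genotypes in the inflammatory myeloid cells. Heat shock genes had a median log2 ratio of -0.17 (-0.18 in the core cells), although Hspa1b, an inducible chaperone gene, was at 101 (WT) and 47.2 CPM (KO) (-1.10, -2.15 to -0.16). Immediate early genes had a median of 0.01, with Nr4a2 (167 and 307 CPM, 0.88, 0.40 to 1.35) and Ier2 (79.2 and 149 CPM, 0.92, 0.22 to 1.62) higher in KO and Fosb (205 and 118 CPM, -0.79, -1.44 to -0.19) lower. Cytosolic ribosomal proteins had a median of 0.07 over 77 genes. Adhesion receptors had a median of -0.17, with Selplg, the ligand of P-selectin, at 130 and 59.0 CPM (-1.14, -2.06 to -0.30).

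Metallothionein genes differed in how far they rested on few cells. Mt1 was at 994 (WT) and 1463 CPM (KO) (0.56, 0.36 to 0.76) and at 0.36 in the core cells, while Mt2 was at 103 and 263 CPM (1.35, 0.79 to 1.92) and at 0.34 in the core cells. Ftl1, the ferritin light chain, was lower in KO (-0.41, -0.48 to -0.35), and Fth1, the heavy chain, had an interval that included 0 (-0.04, -0.10 to 0.02).

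Plasminogen and matrix remodelling genes lay on both sides of 0 between the members and other myeloid cells. Of 10 measured, 7 were higher in members in each library, against 1074 (WT) and 1070 (KO) of 2025 over all genes. The list's median log2 ratio was 0.19 in WT and 0.61 in KO. Fibronectin (Fn1) was at 0.66 (0.49 to 0.82) in WT and 1.54 (1.36 to 1.71) in KO, whereas F13a1, a transglutaminase subunit, was at -0.06 (-0.28 to 0.15) and -1.51 (-1.81 to -1.23) and the inhibitor gene Timp2 at -0.47 (-0.68 to -0.27) and -1.99 (-2.34 to -1.67). Against other inflammatory cells the list was lower in members, with medians of -0.55 (WT) and -0.53 (KO) over those left out for Arg1 alone and of -0.24 and -0.0781 over those left out for monocyte genes alone.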
